A study of Mus musculus with 18 samples.

Results

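FOXS1 KO clone 2 was compared with wild-type (WT) cells after both had been stimulated with TGF-β1 + DMII. The comparison took every gene of the deposited table in 6 of the 18 libraries of the series, 3 of stimulated clone 2 and 3 of stimulated WT. Of 54532 genes, 14317 passed the filter on low counts and were tested. The cells were 10T1/2, a multipotent mouse fibroblast line that the labels spell CH310T1/2 and describe as mesenchymal stem cells. Stimulated cells had been held with TGF-β1 at 1 nM during 12 h and then for 48 h in DMII, an adipogenic mixture of insulin, indomethacin, dexamethasone and 3-isobutyl-1-methylxanthine. The WT group carried no edit. Clone 2 had been grown from a single cell after transfection with Cas9 and guides to the exon of Foxs1. The study checked the edited locus by sequencing of genomic DNA and the loss of FOXS1 protein by western blot. Clone 2 is 1 line, so an effect of losing FOXS1 and a property of that line cannot be told apart by its libraries alone. Uninduced WT and clone 2 (3 libraries each) and stimulated FOXS1 KO clone 1 (3 libraries), a second line made by the same editing, served to show where clone 2 stood before stimulation and beside another clone. The labels do not say that the 3 libraries of a group came from separate cultures, so p-values measure the spread between libraries, which may be technical.

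FOXS1 is a forkhead transcription factor, and forkhead factors bind DNA at a core that contains TGTTTAC. TGF-β1 drives fibroblasts towards myofibroblasts, cells that build stress fibres of smooth muscle actin and lay down collagen, and it holds back adipogenesis. DMII does the reverse: dexamethasone acts through the glucocorticoid receptor, 3-isobutyl-1-methylxanthine blocks the phosphodiesterases that break down cAMP, and with insulin they switch on C/EBP-β and C/EBP-δ, then PPAR-γ and C/EBP-α, and with them the genes of lipid storage. Cells given TGF-β1 and then DMII receive both instructions.

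Values are in CPM, counts scaled to a common depth by the TMM-effective library size, and log2 fold changes (log2FC) are positive where clone 2 was higher. A DEG is a gene with an adjusted p below 0.05 and an absolute log2FC above 1 by the quasi-likelihood test of edgeR, adjusted after Benjamini and Hochberg over all genes tested. The 6 libraries held 17591048 to 24471081 counts. Replicates correlated at 0.990 to 0.992 on a log scale, and each pair differed by more than sampling noise (chi-square per degree of freedom of at least 3.21). Mitochondrial transcripts took 0.976% to 1.10% of counts in WT and 1.34% to 1.66% in clone 2. Uninduced WT replicates correlated less closely, at 0.963 to 0.983, and those of uninduced clone 2 at 0.991 to 0.993. The uninduced clone 2 libraries held 15922953 to 42005596 counts. In bulk RNA, fewer cells of a type and less RNA per cell cannot be told apart.

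Foxs1 (chr2:152931898-152933208, GRCm38) was counted at 3.13, 2.55 and 1.85 CPM in WT and 38.8, 38 and 42.8 CPM in clone 2. All 3 libraries labelled KO thus held more Foxs1 transcript than any WT library, with a log2FC of 3.99 (SE 0.151, adjusted p = 2.81e-19). Uninduced clone 2 was also higher, at 22.6 against 2.23 CPM. The deposited totals sum reads over the whole gene and do not show whether a transcript carries the edit, so they do not check the KO label. Clone 2 means below the libraries that carry that label. Markers of the labelled cell type were present: all 12 mesenchymal fibroblast markers were counted in WT and 11 in clone 2, and their summed level was 51500 to 52900 CPM in WT and 58500 to 64600 CPM in clone 2. Of the 12, Thy1, Nt5e and Pdgfra were lower DEGs and Ly6a was higher. Thy1, a fibroblast surface antigen, was at 51.1, 49.9 and 46 CPM in WT and 0.448, 0.458 and 0.12 CPM in clone 2 (log2FC -7.14). Ly6a, which encodes the stem cell antigen Sca-1, rose from 9.43 ± 0.686 to 182 ± 8.39 CPM (log2FC 4.27). Summed markers of macrophages and leukocytes were at 4.33–5.31 CPM in WT and 14.5–17.1 CPM in clone 2, most of it Cd14, which rose, as did Lyz2 (1 count in WT and 14 in clone 2), while Ptprc, Adgre1, Csf1r and Itgam were too low to be tested. Endothelial markers summed to 0.389–0.636 CPM in WT and 0.458–0.782 CPM in clone 2, epithelial markers to at most 0.293 CPM in either, and neural markers to 76.8–79.5 and 56.6–66.9 CPM. Of these, Tek (endothelial) and Sox2 and Tubb3 (neural) were lower DEGs, and no epithelial marker was called.

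Clone 2 differed from WT at 2418 genes, 16.9% of those tested. Of these, 1138 were higher in clone 2 (7.95%) and 1280 were lower (8.94%). The median log2FC of all genes tested was -0.01. Large falls outnumbered large rises. Among DEGs with an absolute log2FC of 1 to 2, 663 were higher and 543 lower, whereas of those beyond 5, 74 were higher and 326 lower. Rises were more often among abundant transcripts: of 283 DEGs with a mean of at least 100 CPM, 188 were higher and 95 lower, and of 852 with 1 to 10 CPM, 298 were higher and 554 lower. The 3 libraries of clone 2 did not overlap those of WT at 2376 of the 2418 DEGs, and at 65.6% of all genes tested. Gene lists grouped by role are described below by how many tested members were DEGs and by their median log2FC, to be read against these background shares. Counts in uninduced cells are to be read against 2162 of the 14317 genes (15.1%), 793 higher and 1369 lower in clone 2. Counts of a differing response to stimulation are to be read against 1124 genes (7.85%), 700 with the response of clone 2 above that of WT and 424 below it.

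**Figure D1:**
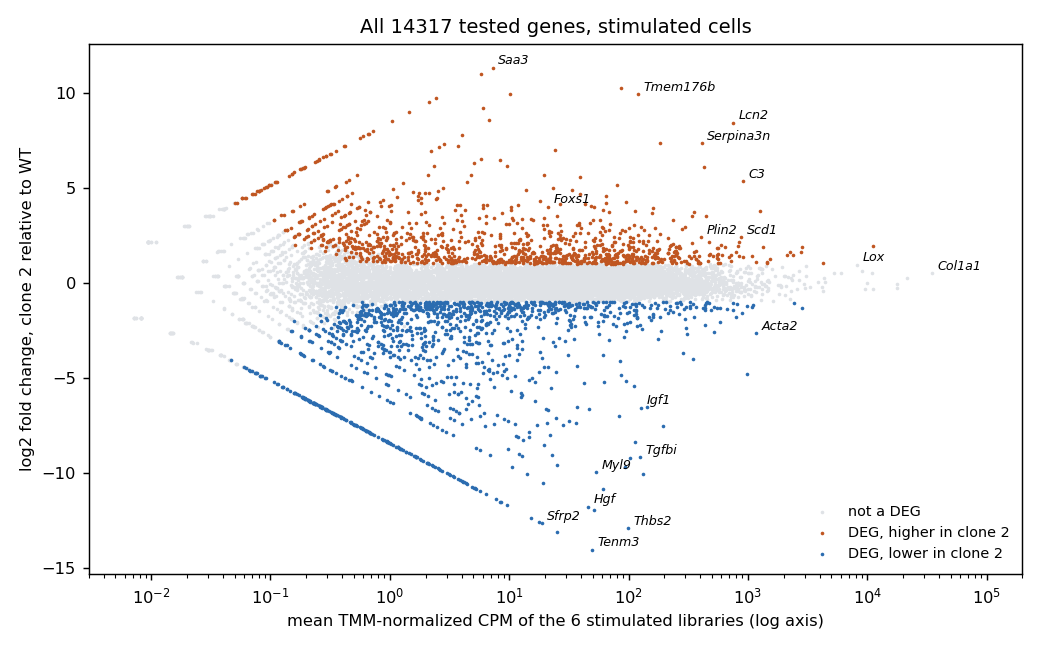
Each of the 14317 genes tested is a point at its mean CPM over the 6 stimulated libraries (log axis) and its log2FC of clone 2 relative to WT, with DEGs coloured. Abundant genes spread upwards more than downwards, and falls beyond a log2FC of -5 (326 genes) outnumber rises beyond 5 (74 genes).

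**Figure D2:**
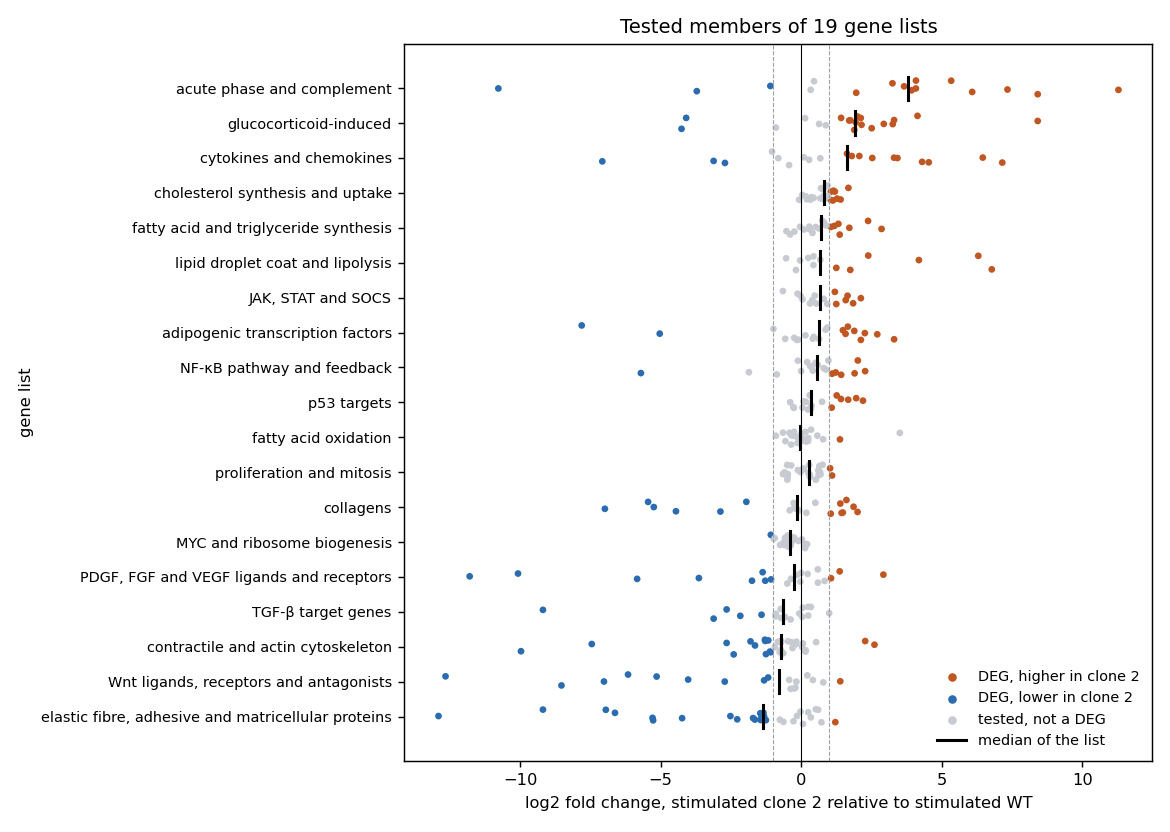
Each point is a tested gene of a list at its log2FC in stimulated clone 2 relative to WT, coloured by whether it was a DEG, with a black bar at the list's median and dashed lines at -1 and 1. Acute phase and complement genes have the highest median (3.80) and elastic fibre, adhesive and matricellular proteins the lowest (-1.35) of the lists drawn.

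Acute phase and complement genes were higher more often than lower. Of 16 tested genes of the acute phase and complement list, 11 were higher and 3 lower in clone 2, with a median log2FC of 3.80. Lcn2 (chr2:32384633-32388252), which encodes the iron-siderophore-binding protein lipocalin 2, stood at 4.25, 4.97 and 3.83 CPM in WT and 1464, 1533 and 1476 CPM in clone 2. The groups did not overlap, their means differed 343-fold, and the log2FC was 8.42 (SE 0.101, adjusted p = 1.77e-26). C3, the central component of complement, was at 46.2, 49 and 37.9 CPM in WT and 1864, 1790 and 1728 CPM in clone 2, a 40.4-fold difference of means (log2FC 5.34, SE 0.116, adjusted p = 4.55e-15). Hp, haptoglobin, which binds free haemoglobin, went from 12.5 ± 0.291 to 851 ± 56.7 CPM (log2FC 6.08). Saa3, an acute phase apolipoprotein, had no count in the 3 WT libraries and 280, 221 and 225 counts in clone 2, which is at least 319-fold higher against a floor of 3 counts over the WT group. The classical complement pathway proteases C1ra and C1s1 rose 15.5-fold and 9.5-fold, although neither exceeded 12.9 CPM in any library. The members that fell were Cd55, which protects cells from complement and went from 10.2 ± 1.18 CPM in WT to no count, Serping1, the C1 inhibitor, with 22 counts in WT and 1 in clone 2, and Ptx3, a pattern recognition protein, from 1115 ± 36.3 to 521 ± 13.3 CPM. Before stimulation 9 of the 16 were already higher in clone 2 and 1 was lower (median 1.28). Cd14, the leukocyte marker that rose beside these genes, went from 4.08 ± 0.486 to 14.7 ± 1.03 CPM, and the part of other cell types in these differences was not tested.

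The serpin A3 genes, which encode secreted inhibitors of serine proteases and lie side by side on chromosome 12 (104214544 to 104414329), rose together. Serpina3n was at 5.23, 4.15 and 5.82 CPM in WT and 848, 833 and 779 CPM in clone 2, with a log2FC of 7.34 (SE 0.14, adjusted p = 5.5e-17). Serpina3m was at 2.15, 2.33 and 2.21 CPM in WT and 369.9, 372 and 354 CPM in clone 2 (log2FC 7.35). Serpina3k had 1 count in WT and 1009 in clone 2, and Serpina3f 12 and 829. These genes are near-identical copies whose reads may have been split among them by the authors' counting, and the annotated span of Serpina3m contains Serpina3k, so their separate levels are uncertain. Other genes among the 12 largest rises were the paired membrane proteins Tmem176a and Tmem176b, at 0.139 ± 0.0547 CPM in WT and 173 ± 5.38 CPM in clone 2 and 0.251 ± 0.178 to 239 ± 3.04 CPM, the pantetheinase Vnn1 (0.384 ± 0.156 to 48 ± 5.85 CPM), the adhesion molecule Ceacam1 (0.124 ± 0.114 to 11.5 ± 1.24 CPM) and Wfdc21, with 2 counts in WT and 677 in clone 2.

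Cytokines were higher more often than lower. Of 19 tested cytokines and chemokines, 10 were higher and 3 lower (median log2FC 1.63). Cxcl1, a chemoattractant of neutrophils, was at 5.53, 6.31 and 4.15 CPM in WT and 132, 119.9 and 120 CPM in clone 2 and did not overlap between groups (log2FC 4.54, SE 0.129, adjusted p = 2.1e-18). Cxcl5 rose 9.91-fold to 104 CPM and Ccl7 10.7-fold to 36 CPM, while Ccl20 went from 2 counts in WT to 259. Cxcl12, the most abundant member, rose from 387 ± 11.2 to 1196 ± 21.7 CPM. The IL-6 family ligands Il6 and Lif rose to 38.2 and 45.9 CPM, 3.48-fold and 5.77-fold. The members that fell were Il11, Il1rl1 (the receptor of IL-33, from 534 ± 38.8 to 81.4 ± 5.04 CPM) and Cxcl14, which had 51 counts in WT and none in clone 2. Within the NF-κB pathway 6 of 20 genes were higher and 1 lower (median 0.55), and the higher ones included the feedback inhibitor Nfkbia (23.8 ± 1.53 to 96.2 ± 5.95 CPM) and the mitochondrial superoxide dismutase Sod2 (107 ± 5.77 to 398 ± 12.4 CPM). The fall was of Bcl3, a nuclear partner of NF-κB, from 20.2 ± 0.549 to 0.391 ± 0.184 CPM. Of 16 JAK, STAT and SOCS genes 6 were higher and none lower (median 0.67), among them Stat5a (28.7 ± 1.51 to 125 ± 7.58 CPM), the receptor chains Il4ra, Il6ra and Osmr, Jak2 and the feedback inhibitor Socs2.

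Genes that glucocorticoids induce were likewise higher more often than lower. Of 20 tested, 14 were higher and 2 lower, with a median log2FC of 1.91, and a share of 70.0% higher stood against 7.95% of all genes. Tsc22d3, which encodes the glucocorticoid-induced leucine zipper protein GILZ, was at 3.81, 4.54 and 5.59 CPM in WT and 83.7, 81.9 and 80.8 CPM in clone 2. Every clone 2 library was above every WT library, with a log2FC of 4.14 (SE 0.124, adjusted p = 3.23e-22). Sgk1, a kinase induced by steroids, was at 337, 349 and 335 CPM in WT and 1310, 1306 and 1295 CPM in clone 2 (log2FC 1.94). Fkbp5, a co-chaperone of the receptor, rose from 83.4 ± 3.83 to 272 ± 16.1 CPM, Glul, glutamine synthetase, from 44.4 ± 2.33 to 253 ± 14.1 CPM, Ddit4, an inhibitor of mTORC1, from 175 ± 5.59 to 762 ± 13.3 CPM and the metallothionein Mt1 from 311 ± 27.9 to 1378 ± 15.8 CPM. Hsd11b1, which regenerates active glucocorticoid inside cells, rose 7.67-fold to 107 CPM, and Nr3c1, the receptor itself, 2.98-fold to 122 CPM. Lcn2 and Cebpd are members of this list as well as of others. The members that fell were Angptl4, an inhibitor of lipoprotein lipase, from 161 ± 7.38 to 9.43 ± 0.821 CPM, and Tgm2, a transglutaminase, from 17 ± 2.21 to 0.883 ± 0.0898 CPM. Before stimulation, when no dexamethasone was present, 4 of the 20 were higher and 6 lower (median -0.25), and the difference between the stimulated and the uninduced comparison was itself a DEG at 14 of 20 genes, all towards clone 2.

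**Figure D3:**
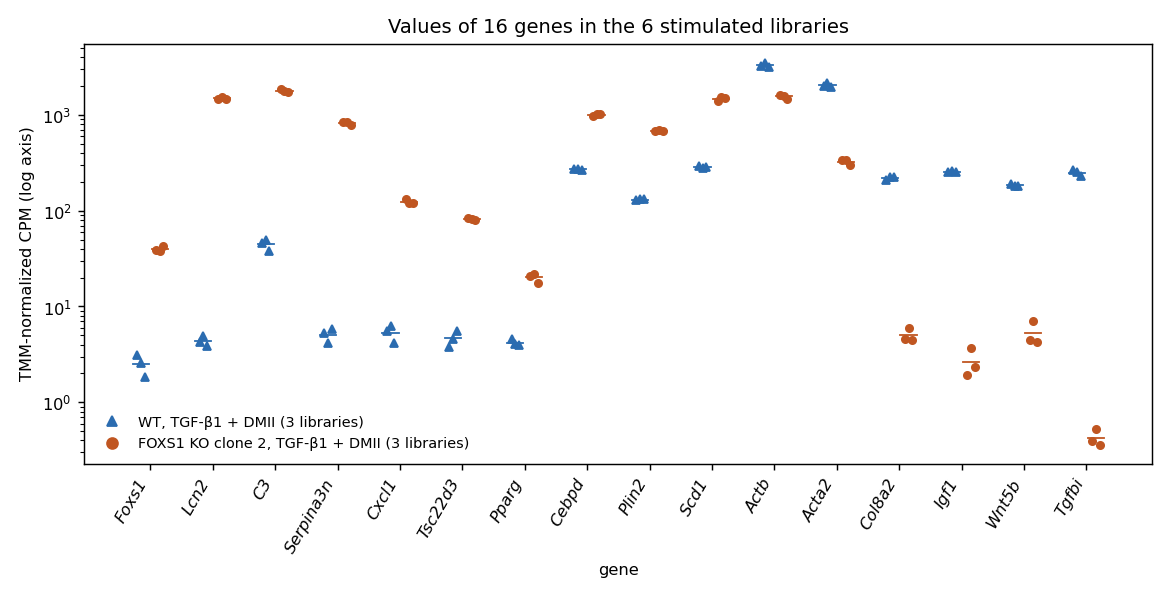
Each point is the CPM of 1 library (log axis) for 16 genes in stimulated WT and stimulated clone 2, and each line is the mean of the 3 libraries of a group. All 16 are DEGs, and no WT library overlaps a clone 2 library for any of them, as at 2376 of all 2418 DEGs and at 65.6% of all genes tested. The means differ from 2.13-fold for Actb to 343-fold for Lcn2 and 589-fold for Tgfbi.

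Adipogenic transcription factors were higher more often than lower. Of 21 tested, 8 were DEGs higher in clone 2, 2 were lower and 11 were not DEGs, with a median log2FC of 0.64. Before stimulation 9 of the 21 were lower in clone 2 and none was higher (median -0.37). The response to stimulation differed from that of WT at 12 of them, always upwards. Pparg, the nuclear receptor that commits cells to fat, was at 4.6, 4.02 and 3.92 CPM in WT and 20.8, 22 and 17.4 CPM in clone 2 (log2FC 2.26, SE 0.112, adjusted p = 7.49e-17). Its 3 clone 2 libraries lay above all WT libraries, yet in uninduced cells WT held 49.5 and clone 2 38.3 CPM, so both groups were lower under TGF-β1 + DMII than without it, WT more so. Cebpd and Cebpb, the early C/EBP factors, rose from 272 ± 3.36 to 1008 ± 23.8 CPM and from 382 ± 13.1 to 1069 ± 30.8 CPM (log2FC 1.89 and 1.48). Klf4, which acts upstream of Cebpb, was at 4.94, 6.13 and 6.13 CPM in WT and 37.7, 35 and 39.9 CPM in clone 2 (log2FC 2.71). Rxra, the partner of PPAR-γ, rose 3.16-fold to 376 CPM. Cebpa, the late C/EBP factor, did not pass the fold threshold and had lower values in clone 2, at 48.8, 46.5 and 47.5 CPM in WT and 23.8, 23.3 and 24.8 CPM in clone 2 (log2FC -0.99, adjusted p = 4.47e-13). Without WT library 2, without clone 2 library 3 or with no filter beyond 1 count its log2FC was -1.0, -1.01 or -1.02 and passed. The DEGs that fell were at low levels: Ebf2 with 98 counts in WT and 2 in clone 2, and Zfp467 with 87 and none. Of 19 brakes on adipogenesis 2 were higher and 2 lower (median 0.06), and 2 in all were DEGs without WT library 1 or without clone 2 library 1. Gata2, which represses Pparg, fell from 43.6 ± 2.52 to 4.41 ± 0.203 CPM, and Ddit3, which encodes the C/EBP inhibitor CHOP, rose from 18.1 ± 1.08 to 84.1 ± 1.78 CPM. Pmepa1, a TGF-β-induced inhibitor of Smad signalling and the most abundant of these, was at 1685 ± 84.2 CPM in WT and 897 ± 40.2 CPM in clone 2 with a log2FC of -0.91, inside the fold threshold.

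Every lipid droplet and lipid synthesis gene that was a DEG was higher in clone 2. Of 13 tested genes of the lipid droplet coat and lipolysis, 6 were higher and none lower (median 0.68). Plin2, the perilipin of small droplets, was at 128, 132 and 132 CPM in WT and 682, 690.5 and 676 CPM in clone 2, a 5.23-fold difference (log2FC 2.39, SE 0.0472, adjusted p = 1.35e-26). G0s2, which restrains the lipase ATGL, rose from 6.71 ± 0.296 to 122 ± 5.02 CPM (log2FC 4.19). Plin4 and Plin1, coat proteins of mature fat cells, rose from 8 to 501 counts and from 0 to 31 counts, and neither exceeded 11.3 CPM in any library. Of 20 genes of fatty acid and triglyceride synthesis 7 were higher and none lower (median 0.69). Scd1, the desaturase that makes oleate, was at 289.5, 278 and 284 CPM in WT and 1386, 1531 and 1512 CPM in clone 2 (log2FC 2.38). Fasn, fatty acid synthase, rose from 510.2 ± 10.1 to 1319 ± 65.5 CPM, and the enzymes of the last step of triglyceride synthesis, Dgat1 and Dgat2, rose 3.27-fold and 7.27-fold. Of 16 genes of fatty acid uptake and adipokines 5 were higher and 3 lower (median 0.93). Vldlr, a receptor of triglyceride-rich lipoproteins, rose from 7.99 ± 1.3 to 69.5 ± 2.45 CPM, whereas the transporter Slc27a1 fell from 10.5 ± 0.209 to 0.217 ± 0.0774 CPM. Fabp4, the fatty acid binding protein of fat cells, was low in both groups, at 0.293, 0.561 and 1.04 CPM in WT and 3.92, 3.46 and 2.1 CPM in clone 2. Adipoq, adiponectin, had no count in WT and 6 in clone 2, which did not pass the test (adjusted p = 0.0569). Few genes of fatty acid oxidation were DEGs: 1 of 24 was higher, and the median was -0.04. Pdk4, the kinase that turns pyruvate dehydrogenase off, was its most abundant member, at 928 ± 14.3 CPM in WT and 497 ± 27.9 CPM in clone 2 (log2FC -0.90, inside the fold threshold).

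Cholesterol synthesis and uptake genes were shifted upwards nearly as a whole, but by small steps. Of 24 tested, 8 were DEGs higher in clone 2, none was lower, and 22 had an adjusted p below 0.05, with a median log2FC of 0.80 and a range of -0.08 to 1.68. Sqle, squalene epoxidase, was at 203, 194 and 192 CPM in WT and 502, 464 and 463 CPM in clone 2 (log2FC 1.28), and Cyp51, lanosterol demethylase, at 185, 165 and 176 CPM in WT and 473, 464 and 453 CPM in clone 2 (log2FC 1.40). Pmvk, phosphomevalonate kinase, rose from 6.13 ± 0.359 to 19.6 ± 1.41 CPM and the cholesterol exporter Abca1 from 37 ± 0.835 to 84.9 ± 12.5 CPM. Srebf2, the transcription factor that controls the pathway and its most abundant member, was at 359 ± 7.04 CPM in WT and 615 ± 15.8 CPM in clone 2 (log2FC 0.78). The same list was higher in uninduced clone 2, with 11 of 24 higher, 1 lower and a median of 0.99.

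Contractile and actin cytoskeleton genes were lower more often than higher. Of 33 tested, 12 were lower and 2 higher in clone 2, with a median log2FC of -0.72, and 36.4% lower stood against 8.94% of all genes. Acta2, the smooth muscle actin that defines myofibroblasts, was at 1995, 2133 and 1979 CPM in WT and 336, 337 and 297 CPM in clone 2. The groups were far apart, with a 6.3-fold difference of means (log2FC -2.65, SE 0.0539, adjusted p = 2.35e-26). Myl9, the regulatory light chain of smooth muscle myosin, was at 103, 115 and 103 CPM in WT and 0.056, 0.196 and 0.0601 CPM in clone 2 (log2FC -9.97, SE 0.235, adjusted p = 2.64e-23), a near loss in all 3 libraries. Cnn2, a calponin, fell from 553 ± 12.1 to 158 ± 9.62 CPM, the tropomyosins Tpm1 and Tpm2 from 402 ± 8.24 to 128 ± 10.5 CPM and from 68.5 ± 2.5 to 28.7 ± 1.99 CPM, and Zyx, zyxin of focal adhesions, from 524 ± 10.5 to 216 ± 16.1 CPM. Actb, cytoplasmic β-actin, often taken as a constant reference, was at 3273, 3477 and 3193 CPM in WT and 1619, 1573 and 1481 CPM in clone 2 (log2FC -1.09). Actg2, enteric smooth muscle actin, fell from 22.2 ± 1.75 to 0.121 ± 0.00938 CPM. Tagln, another smooth muscle marker, was at most 0.857 CPM in any library and did not pass the test (log2FC -0.72, adjusted p = 0.359), and 67.9% of its exonic bases lie under another gene. How reads in those bases were counted is not known, so its level and its difference are uncertain here. The study reported Tagln as lower in the KO clones by RNA sequencing and as less induced by RT-qPCR. The 2 higher members were Mylk, myosin light chain kinase, at 3.05 ± 0.989 CPM in WT and 18.8 ± 1.01 CPM in clone 2, and Des, desmin, with 10 counts in WT and 38 in clone 2. In uninduced cells 3 of the 33 were higher and 3 lower (median -0.05), and the response to stimulation differed from that of WT at 11 of 33 genes, always downwards. Of 19 SRF cofactors and YAP or TAZ targets 4 were lower and 1 higher (median -0.10). Ajuba, a LIM protein of cell junctions, fell from 95.2 ± 2.6 to 28.8 ± 2.54 CPM and Fhl1 from 34 ± 2.74 to 11.3 ± 2.43 CPM, while Tead4, a DNA-binding partner of YAP, rose from 6.04 ± 0.952 to 38.6 ± 0.147 CPM. Cyr61 was at 643 ± 93.7 CPM in WT and 302 ± 34.8 CPM in clone 2 (log2FC -1.09), and its call was lost without WT library 2 (log2FC -0.97).

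Actin genes are classic targets of serum response factor, which binds the CArG box, and the 250 bases before the start of each gene were searched for exact CArG boxes, a palindromic motif that reads alike on both strands. RefSeq promoters (GRCm38.p6) could be matched to 10143 of 14314 symbols tested. A box was present in 144 of them (1.42%), in 9 of 777 higher DEGs (1.16%), in 22 of 918 lower DEGs (2.40%) and in 5 of 28 contractile genes (Actg1, Cnn2, Myl6, Myl9 and Vcl; 17.9%). Of these 5, Myl9 and Cnn2 were DEGs. The forkhead core TGTTTAC, searched on both strands, was in 265 tested promoters (2.61%), in 23 higher DEGs (2.96%) and in 30 lower DEGs (3.27%). The windows of 3 contractile genes that fell are shown 5′ to 3′ on the gene's strand, with exact boxes in capitals. Those of Myl9 (chr2:156775214-156775463, + strand) and Cnn2 (chr10:79988350-79988599, + strand) hold a box that begins 161 and 56 bases before the start. That of Acta2 (chr19:34255374-34255623, - strand) holds no exact box within these letters. It does hold ccctatatgg and ccttgtttgg, each of which departs from the exact box at a single base. Such inexact boxes were not counted in any promoter.
Myl9: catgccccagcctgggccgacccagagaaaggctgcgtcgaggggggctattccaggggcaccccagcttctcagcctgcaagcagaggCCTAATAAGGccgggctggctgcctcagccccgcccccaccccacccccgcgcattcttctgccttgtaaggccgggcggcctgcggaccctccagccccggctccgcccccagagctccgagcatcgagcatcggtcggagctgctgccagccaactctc
Cnn2: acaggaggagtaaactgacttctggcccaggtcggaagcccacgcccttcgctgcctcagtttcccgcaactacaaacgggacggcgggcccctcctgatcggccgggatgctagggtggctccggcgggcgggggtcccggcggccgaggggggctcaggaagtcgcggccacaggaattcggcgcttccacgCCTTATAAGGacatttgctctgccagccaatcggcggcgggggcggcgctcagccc
Acta2: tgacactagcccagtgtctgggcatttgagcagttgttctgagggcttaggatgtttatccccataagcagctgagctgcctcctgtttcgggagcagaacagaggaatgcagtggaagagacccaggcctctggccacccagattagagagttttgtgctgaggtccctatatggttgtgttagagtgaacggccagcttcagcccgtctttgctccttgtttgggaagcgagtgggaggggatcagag
A match of letters is a description and not evidence of binding, and sites outside the 250 bases were not searched.

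Genes of the extracellular matrix differed in both directions. The abundant fibrillar collagens stayed inside the fold threshold: Col1a1 was at 28860 ± 542 CPM in WT and 40900 ± 2634 CPM in clone 2 (log2FC 0.50) and Col3a1 at 19600 ± 243 CPM in WT and 16230 ± 362 CPM in clone 2 (log2FC -0.27). Of 20 collagens 7 were higher and 6 lower (median -0.14). Every higher DEG but Col11a1 was a chain of basement membrane collagen IV (Col4a1, Col4a2, Col4a5) or of microfibrillar collagen VI (Col6a1, Col6a2, Col6a3). Col4a1 was at 1202, 1306 and 1138 CPM in WT and 4637, 4476 and 4144 CPM in clone 2 (log2FC 1.86), and Col6a3 at 219.7, 258 and 231 CPM in WT and 826, 1003 and 1018 CPM in clone 2 (log2FC 2.00). The lower DEGs were Col7a1, the collagen of anchoring fibrils, at 162, 172 and 166 CPM in WT and 1.51, 1.5 and 0.902 CPM in clone 2 (log2FC -6.99, SE 0.186, adjusted p = 2.52e-20), the network collagens Col8a1 (37.2 ± 1.69 to 1.68 ± 0.148 CPM) and Col8a2 (218 ± 9.81 to 5.02 ± 0.808 CPM), Col18a1 (122 ± 4.97 to 3.19 ± 0.487 CPM), Col15a1 and Col5a3. The groups did not overlap for any of these 6, as at 2376 of all 2418 DEGs and at 65.6% of all genes tested.

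Elastic fibre, adhesive and matricellular proteins fell widely, with 17 of 29 tested lower (58.6%, against 8.94% of all genes), 1 higher and a median log2FC of -1.35. Tgfbi, a TGF-β-induced adhesive protein, was at 267, 254 and 230.2 CPM in WT and 0.392, 0.523 and 0.361 CPM in clone 2 (log2FC -9.19, SE 0.146, adjusted p = 3.2e-28). Thbs2, thrombospondin 2, had 13086 counts in WT and 1 in clone 2. Eln, elastin, fell from 82.8 ± 2.46 to 2.09 ± 0.422 CPM, and the microfibril proteins Mfap5 and Fbn1 from 40.3 ± 2.96 to 0.399 ± 0.0636 CPM and from 4104 ± 187 to 1616 ± 170 CPM. Postn, periostin, fell from 1085 ± 24.4 to 407 ± 43.8 CPM, and the small leucine-rich proteoglycans Fmod and Lum from 92.9 ± 8.81 to 19.1 ± 1.93 CPM and from 10.4 ± 1.06 to 0.537 ± 0.184 CPM, while their relative Dcn, decorin, was the rise (6.04 ± 0.422 to 14.1 ± 0.965 CPM). Fn1, fibronectin, the most abundant member, did not differ by the test, at 20120, 20750 and 18450 CPM in WT and 21720, 23530 and 25140 CPM in clone 2 (log2FC 0.25, adjusted p = 0.0607). This list was also lower in uninduced clone 2, with 13 falls and 2 rises among the 29 and a median of -0.91.

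Enzymes and receptors of the matrix were mixed. Of 17 genes of collagen crosslinking and processing 2 were higher and 4 lower (median -0.25). Loxl1, a lysyl oxidase of elastic fibres, fell from 832 ± 19.6 to 329.7 ± 17.1 CPM and Adamts2, the procollagen N-proteinase, from 183 ± 0.532 to 50.4 ± 4.05 CPM, whereas Loxl4 rose from 6.66 ± 1.11 to 37 ± 2.21 CPM. Lox, the most abundant member, was at 5623 ± 142 CPM in WT and 10870 ± 486 CPM in clone 2 (log2FC 0.95, just inside the fold threshold). Of 17 matrix proteases and inhibitors 2 were higher and 7 lower (median -0.03). The plasminogen activators Plat and Plau fell 8.18-fold and 9.25-fold and the inhibitor Timp3 from 1235 ± 57.4 to 359 ± 9 CPM, while the gelatinase Mmp2 rose from 2787 ± 91.8 to 5814 ± 72 CPM and Mmp11 from 28.1 ± 1.53 to 122 ± 7.12 CPM. Of 12 laminins and nidogens 3 were higher and 2 lower (median 0.14). Lamb3, a chain of epithelial laminin-332, rose from 0.254 ± 0.123 to 18.9 ± 0.976 CPM and Lama2 fell from 5.72 ± 1.12 to 0.754 ± 0.222 CPM. Of 18 integrins and cadherins 4 were higher and 4 lower (median -0.04). Itga11, the collagen-binding integrin chain of fibroblasts, was at 209.9, 215 and 188 CPM in WT and 0.616, 0.0654 and 0.301 CPM in clone 2 (log2FC -9.20), and Itga6, a laminin receptor chain, rose from 7.18 ± 2.06 to 44.5 ± 3.96 CPM. Itgb1, the most abundant of the list, was at 1021 ± 15.8 CPM in WT and 849 ± 8.02 CPM in clone 2 (log2FC -0.27).

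Components of TGF-β signalling itself differed in both directions. Of 23 ligands, receptors and Smads 3 were higher and 3 lower (13.0% each, against 7.95% and 8.94% of all genes, median -0.22). Tgfb1 was at 55.7, 61.6 and 53.9 CPM in WT and 50.5, 47.7 and 49.1 CPM in clone 2 (log2FC -0.22, adjusted p = 0.0347) and Tgfbr2, the type II receptor and most abundant member, at 581 ± 4.08 CPM in WT and 402 ± 18.9 CPM in clone 2 (log2FC -0.53). The largest change was in Inhba, the activin A subunit, at 332, 314 and 310.5 CPM in WT and 50.1, 52.2 and 59.5 CPM in clone 2 (log2FC -2.56, SE 0.104, adjusted p = 8.52e-15). Tgfb2 fell from 54.2 ± 3.44 to 23.4 ± 2.23 CPM and Acvr1b, an activin receptor, rose from 36.8 ± 1.85 to 89.9 ± 3.73 CPM. Of 18 TGF-β target genes 5 were lower and none higher (median -0.65): Acta2, Postn and Tgfbi, given above, Adam12 (151 ± 10.3 to 33.7 ± 1.32 CPM) and the cytokine Il11 (11.5, 10.1 and 6.94 CPM in WT and 1.68, 0.523 and 1.02 CPM in clone 2). In uninduced clone 2, 7 of the 18 were lower (median -0.63), among them Tgfbi, Adam12 and Il11, whereas Acta2 and Postn were not DEGs before stimulation (log2FC -0.50 and -0.91). Of 14 BMP ligands, receptors and antagonists 3 were lower and none higher (median -0.11). Grem1, a secreted BMP antagonist, was at 188, 187 and 184 CPM in WT and 0.392, 0.196 and 0.0601 CPM in clone 2 (log2FC -9.68), the ligand Gdf6 went from 241 counts to none and the follistatin relative Fstl3 from 404 counts to 5.

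Secreted growth factors and their modulators were lower in several families. Of 18 Wnt ligands, receptors and antagonists 9 were lower and 1 higher (median -0.80). Wnt5b was at 189, 182 and 179.9 CPM in WT and 4.48, 7 and 4.21 CPM in clone 2 (log2FC -5.15) and Wnt5a, the other non-canonical ligand, at 40.4, 39 and 38.8 CPM in WT and 0.056, 0.262 and 0 CPM in clone 2 (log2FC -8.53). The secreted antagonists Sfrp1 and Sfrp2 fell too, from 652 ± 36.7 to 40.1 ± 2.2 CPM and from 2473 counts to none. Lef1, a nuclear effector, was the rise (6.3 ± 1.07 to 16.6 ± 0.555 CPM). The list stood at 9 lower and 1 higher, with a median of -1.0, in uninduced clone 2 as well. Of 20 PDGF, FGF and VEGF ligands and receptors 8 were lower and 3 higher (median -0.25). Hgf, hepatocyte growth factor, had 6061 counts in WT and 1 in clone 2, Fgf18 had 1837 and 1, and Vegfc 249 and 3. Pdgfra fell from 731 ± 8.08 to 301 ± 10.8 CPM, while Pdgfrb overlapped between groups, at 866, 891 and 867 CPM in WT and 880.5, 905 and 828 CPM in clone 2 (log2FC -0.01, SE 0.0417). Fgf2 was the large rise, at 28.9, 30.3 and 29.9 CPM in WT and 208, 219 and 249.5 CPM in clone 2 (log2FC 2.92). Of 17 genes of the insulin and IGF axis 5 were higher and 5 lower (median 0.32). Igf1, an autocrine growth factor, was at 252, 257 and 251 CPM in WT and 1.91, 3.73 and 2.35 CPM in clone 2 (log2FC -6.59, SE 0.117, adjusted p = 1.8e-26), and the binding proteins Igfbp3 and Igfbp4 fell 24-fold and 5.49-fold and Igfbp2 from 551 counts to none. Irs2, an adaptor of the insulin receptor, rose from 44.2 ± 4.15 to 108 ± 5.77 CPM.

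Of 20 genes of cAMP signalling and its targets 6 were higher and 7 lower (median 0.08), and the directions divided by role. All 7 falls were phosphodiesterases, the enzymes that 3-isobutyl-1-methylxanthine inhibits: Pde1a was at 43.1, 42.9 and 45.4 CPM in WT and 1.18, 1.05 and 0.601 CPM in clone 2 (log2FC -5.53), Pde10a at 15.5 ± 0.601 CPM in WT and 0.763 ± 0.0363 CPM in clone 2, Pde3b at 14.8 ± 0.751 CPM in WT and 0.0792 ± 0.0286 CPM in clone 2 and Pde7b at 12.2 ± 0.702 CPM in WT and 0.0965 ± 0.115 CPM in clone 2, Pde3a went from 125 counts to none, and Pde4a and Pde4d fell as well. The rises were immediate cAMP targets or signalling parts, with Nr4a1, an orphan nuclear receptor, at 36.9, 49.1 and 44.4 CPM in WT and 199, 196 and 212 CPM in clone 2 (log2FC 2.21), Rgs2, a brake on G protein signals, at 97.4 ± 2.19 CPM in WT and 339 ± 14.6 CPM in clone 2 and Areg, amphiregulin, at 0.784 ± 0.568 CPM in WT and 3.07 ± 0.707 CPM in clone 2. Pde4b was the phosphodiesterase that rose (25.9 ± 0.847 to 74.4 ± 0.281 CPM). Uninduced clone 2 had 12 of the 20 lower, none higher and a median of -1.65, and the response to stimulation differed from that of WT at 11 genes, all towards clone 2. Of 12 prostaglandin genes 2 were higher and 2 lower (median 0.64): Ptgs2, cyclooxygenase 2, rose from 152 ± 11.4 to 314 ± 14 CPM, and prostacyclin synthase Ptgis fell from 62.5 ± 1.73 to 0.405 ± 0.0623 CPM.

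Few proliferation genes were DEGs after stimulation. Of 26 tested 2 were higher (7.69%, against 7.95% of all genes) and none lower, with a median of 0.27. Before stimulation 7 of the 26 were higher in clone 2 and none was lower (median 0.56). The response to stimulation differed from that of WT at 5 of them, always downwards. Mki67 was at 13.1, 16.8 and 15.1 CPM in WT and 36.4, 28.9 and 31.3 CPM in clone 2 (log2FC 1.10, adjusted p = 0.00261). Cenpf, the other, was at 9.75 ± 1.62 CPM in WT and 19.9 ± 2.98 CPM in clone 2 (log2FC 1.03) and fell below the fold threshold without WT library 3, clone 2 library 1 or clone 2 library 2 (log2FC 0.90, 0.96 and 0.97). Of 17 cyclins D and E and kinase inhibitors 2 were higher and 3 lower (median -0.02). Cdkn1a, the inhibitor p21, was at 63.3, 58.6 and 64.5 CPM in WT and 275, 284 and 296 CPM in clone 2 (log2FC 2.20, SE 0.0598, adjusted p = 3.35e-23). Cdkn2a and Cdkn2b, the neighbouring genes of the inhibitors p16, p19 and p15 on chromosome 4 (89274471 to 89311039), had 1987 and 2332 counts in WT and none in clone 2. Neither had a count in uninduced clone 2 or in clone 1 with or without stimulation, against 2091 and 2434 in uninduced WT. Of 17 p53 targets 6 were higher and none lower (median 0.35), among them Btg2 (29.6 ± 2.7 to 115 ± 5.53 CPM), Gadd45a (40.6 ± 3.28 to 129 ± 4.74 CPM) and Trp53inp1 (51.9 ± 1.25 to 138 ± 10.4 CPM). Of 22 genes of MYC and ribosome biogenesis 1 was lower, Npm1 (610.3 ± 5.81 to 288 ± 10.1 CPM), and the median was -0.40. Myc overlapped between groups, at 124, 133 and 115 CPM in WT and 144, 141 and 126 CPM in clone 2 (log2FC 0.14, adjusted p = 0.11). Of 18 genes of the unfolded protein and integrated stress responses 3 were higher and none lower (median 0.51): Ddit3, Trib3 (28.7 ± 0.826 to 96.5 ± 3.45 CPM) and the cystine transporter Slc7a11 (4.77 ± 0.699 to 34.2 ± 3.97 CPM). Of 19 antioxidant, glutathione and metallothionein genes 7 were higher and 1 lower (median 0.34), among them Nqo1 and Sod2.

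A set of genes was expressed in WT and not counted at all in clone 2. Of genes averaging 1 CPM or more in stimulated WT, 97 had no count in any of the 3 clone 2 libraries, 94 of them protein coding, and they lay on 20 chromosomes with no run of 3 or more neighbours among expressed genes. Tenm3, a teneurin adhesion receptor, led with 2044, 2346 and 2119 counts in WT, at least 1642-fold lower in clone 2 against a floor of 3 counts over the group. Prickle1, of the planar polarity pathway, was at least 841-fold lower, Sfrp2 at least 623-fold, Cdkn2b at least 588-fold and Cdkn2a at least 501-fold. The axon guidance receptor Robo1 (1131 counts in WT), the endothelial lectin Clec14a (1025) and Tmem47 (1274) were further examples. Plxdc2, with 6742 counts in WT, had 1 in clone 2. Of the 97 genes, 59 also had no count in the 3 uninduced libraries of clone 2, and 5 had more than 30 counts there. In stimulated clone 1, 52 had no count and 20 had more than 30. No count was found in either clone, with or without stimulation, for 24 of the 97, among them Cdkn2a, Cdkn2b and Robo1. The reverse set was small: 11 genes with at least 1 CPM in clone 2 had no count in stimulated WT. After Saa3 these were led by Gm5878 (579 counts), the serpin Serpina3i, Nos2 (209 counts), the inducible nitric oxide synthase, and Sybu (142 counts). At this depth no count over the 3 libraries allows up to 0.0456 CPM in WT and 0.0603 CPM in clone 2, by counting error alone.

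Uninduced clone 2 differed from uninduced WT at 2162 genes (15.1%), and these libraries are separate from the stimulated ones. Of the 1280 genes lower in stimulated clone 2, 843 (65.9%) were also lower DEGs in uninduced clone 2, which is 61.6% of the 1369 lower DEGs of that comparison, and 10 were higher. Of the 1138 genes higher in stimulated clone 2, 435 (38.2%) were also higher uninduced, 54.9% of 793, and 38 were lower. Genes that were low in clone 2 irrespective of stimulation included Igf1 (log2FC -5.34 uninduced and -6.59 stimulated), Wnt5b (-3.99 and -5.15), Gata2 (-2.70 and -3.31) and Pde1a (-5.55 and -5.53), and Lcn2 was high in both (7.72 and 8.42). The response of clone 2 to TGF-β1 + DMII differed from that of WT at 1124 genes (7.85%), 700 above it and 424 below it, a test that uses the stimulated libraries again. Serpina3n was among them: uninduced levels were 6.48 CPM in WT and 26.2 CPM in clone 2, and stimulated levels 5.07 and 819.9 CPM. Hp stood at 56.1 and 107 CPM before and at 12.5 and 851 CPM after. Acta2, at 274 CPM in WT and 193 CPM in clone 2 before stimulation, reached 2036 and 323 CPM after it, so clone 2 showed the smaller increase. For Col8a2 the corresponding levels were 56.8 and 15.2 CPM before and 218 and 5.02 CPM after. For 48 genes the uninduced and the stimulated differences were DEGs in opposite directions. The most abundant were Rflnb, a regulator of filamin, higher in uninduced clone 2 (log2FC 1.81) and lower after stimulation (1337 ± 13.4 to 442 ± 32.7 CPM, log2FC -1.59), and Nqo1, a quinone reductase, lower uninduced (log2FC -1.13) and higher after stimulation (292 ± 19.9 to 806 ± 6.81 CPM, log2FC 1.47). The third, CT010467.1, has 73.9% of its exonic bases under another gene, and its stimulated call (log2FC 1.07) was lost without WT library 2 (0.96) or clone 2 library 3 (1.00).

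**Figure D4:**
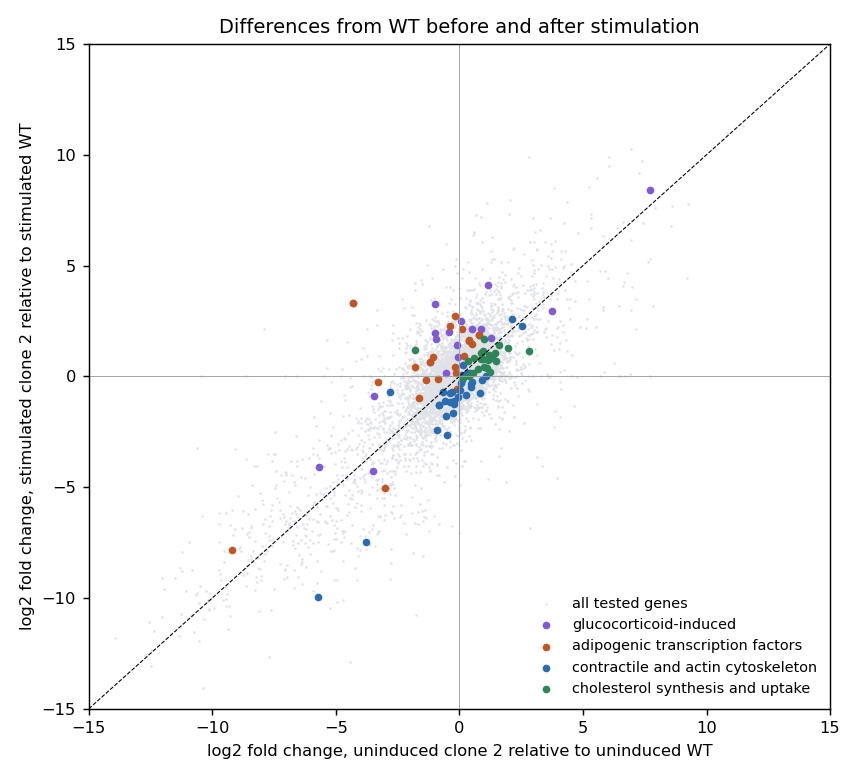
Each grey point is a gene tested, at its log2FC of clone 2 relative to WT in uninduced cells (horizontal) and in stimulated cells (vertical), with 4 lists in colour and a dashed line where both are equal. The response differed from that of WT at 14 of 20 glucocorticoid-induced genes, all above the line, at 11 of 33 contractile genes, all below the line, and at 3 of 24 cholesterol genes, 1 above it and 2 below.

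Stimulated clone 2 and stimulated clone 1 differed at 1429 genes (9.98%), 642 higher and 787 lower in clone 2, and since both clones are set beside the same WT libraries their values are given side by side only. Several of the leading differences stood at a similar level in clone 1: Lcn2 at 1719 CPM against 1491 in clone 2, Hp at 836 against 851, Acta2 at 308 against 323 and Plin2 at 601 against 683, none of them a DEG between clones. The 4 largest falls of clone 2 below clone 1 among its DEGs against WT were Plxdc2, with 102 CPM in WT, 1 count in clone 2 and 274 CPM in clone 1, Epb41l3 (16.9 CPM in WT, no count in clone 2, 12.3 CPM in clone 1), Thbs2 (19 CPM in clone 1) and Hgf (16.3 CPM in clone 1). In the other direction Ndn, the imprinted gene of necdin, was at 53.4 CPM in WT, 11.5 in clone 2 and without a count in clone 1, and Marcksl1 at 146, 48.9 and 0.0478 CPM. Artn, artemin, was at 42.1 CPM in WT, 4.88 in clone 2 and without a count in clone 1, and Gm5878 had a count in stimulated clone 2 (11.6 CPM) and in neither of the other stimulated groups. Thy1, nearly lost in clone 2, was at 161 CPM in clone 1 against 49 in WT. Among genes of the fat cell, Plin4 was at 146 CPM in clone 1 and 10 in clone 2, Fabp4 at 20.4 and 3.16 and Cebpa at 118 and 24, each a DEG between clones. Of the 13 tested lipid droplet genes 6 were lower in clone 2 than in clone 1 and none was higher, while other lists differed in both directions: 2 adipogenic factors were higher and 3 lower in clone 2, and 3 genes of fatty acid uptake and adipokines were higher and 4 lower.

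Median log2FC varied by chromosome among genes averaging 5 CPM or more. It was highest on chromosomes 16 and 15, at 0.43 and 0.42, where 40 of 325 and 51 of 399 genes were higher DEGs and 9 and 7 were lower. It was lowest on chromosomes 13 and 4, at -0.28 and -0.26, where 16 of 357 and 19 of 622 genes were higher and 40 and 50 were lower. The same chromosomes stood out in the separate uninduced libraries, with medians of 0.40 (chromosome 16), 0.46 (15), -0.25 (13) and -0.22 (4). Stimulated clone 1, set beside the same WT libraries, had medians of 0.13 (chromosome 16), 0.44 (15), -0.003 (13) and -0.24 (4). The values of chromosomes 15 and 4 were thus similar in both clones, and that of chromosome 13 was not.

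**Figure D5:**
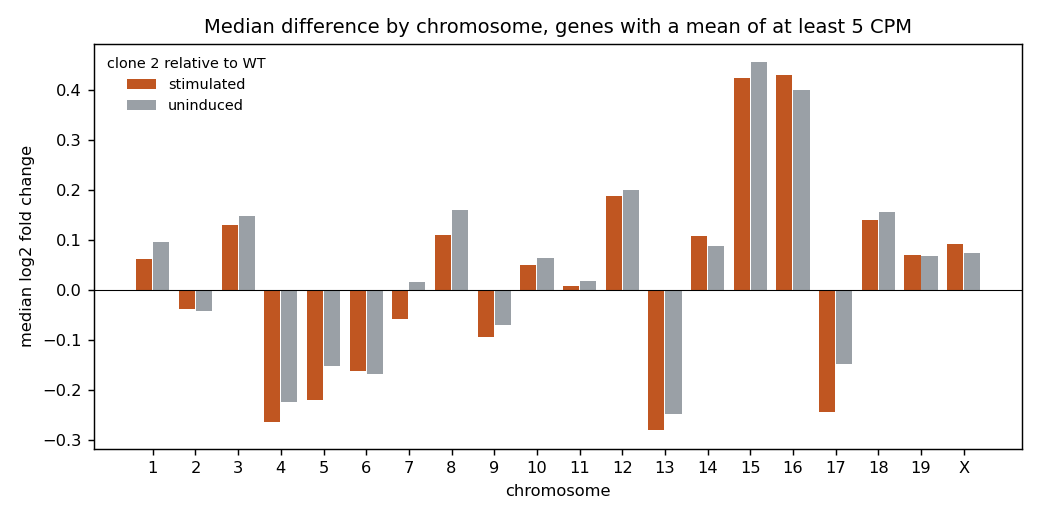
Bars show the median log2FC of clone 2 relative to WT by chromosome, over genes averaging 5 CPM or more, for stimulated and for uninduced cells. Chromosomes 15 and 16 are highest and chromosome 13 lowest in stimulated cells, and uninduced cells give medians of the same sign at these 3.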

How the data were processed

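Poly(A) RNA of 10T1/2 cells was sequenced by the authors, who aligned reads to GRCm38/mm10 with HISAT2 and deposited raw counts per gene for all 18 libraries. Which program, annotation release and strand setting produced the counts is not given in the sources used here, so reads of overlapping genes cannot be assigned with certainty (58 of 203 genes named by rule share exonic bases with another gene, 2 at least 50%). Totals of the 6 libraries compared were 17591048 to 24471081 counts.

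Libraries were grouped by their labels. Genes were filtered with filterByExpr (minimum count 10) and normalised by TMM, and all 6 groups of the series were fitted together, each with its own mean, by the quasi-likelihood method of edgeR 4.0.16 (R 4.3.3) with robust dispersion estimates, followed by Benjamini-Hochberg adjustment over 14317 genes. The study used DESeq2 with the same thresholds, and DESeq2 1.42.0 is an alternative here. Standard errors are the log2FC over the square root of F, CPM are counts over TMM-scaled library sizes, and errors are SD over 3 libraries. A group without a count was set to a floor of 3 counts. The fit was tested on simulated data.

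The comparison, the gene lists and the rule for named genes were chosen with earlier results of these data known. The rule took Foxs1, the 12 largest rises and falls with a mean of at least 5 CPM, in each list the 4 largest DEGs and the most abundant member, a set of textbook genes, the leading genes without a count in either group, the largest differences from clone 1 and the 3 most abundant genes of opposite direction. Other genes in the text (Acan, Actg1, Adgre1, Areg, C1ra, C1s1, Cnn2, Col11a1, Col15a1, Col4a1, Col4a2, Col4a5, Col5a3, Col6a1, Col6a2, Col6a3, Csf1r, Cxcl14, Dcn, Ddit4, Des, Ebf2, Fbn1, Fkbp5, Fmod, Glul, Heyl, Hp, Hsd11b1, Il1rl1, Il6, Irs2, Itgam, Jak2, Lef1, Lif, Lum, Lyz2, Myl6, Nr3c1, Nr4a1, Nt5e, Osmr, Pde3a, Pde4a, Pde4b, Pde4d, Plin1, Postn, Ptprc, Ptx3, Rxra, Serping1, Sfrp1, Sgk1, Sox2, Spp1, Timp3, Tpm1, Tpm2, Vcl, Zfp467 and Zyx, and the abundant genes outside the lists) were chosen after their values were seen. A few genes that the rule or the lists hold are not reported here. Alternatives were the scaling, the filter, the test, the libraries fitted, a replicate block and leaving out each library.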

Additional observations from a re-analysis of the deposited data

Results flagged for a closer look

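The response to TGF-β1 + DMII differed between clone 2 and WT at 1124 genes, tested as the interaction of genotype and treatment with edgeR's quasi-likelihood test and Benjamini-Hochberg adjustment. Of the genes named in the text, 105 were among them, and they are given here because the test of the difference itself passed. Many were named for their stimulated difference from WT, which the interaction contains. Their number therefore cannot be read against the 7.85% of all genes tested. For 71 of the 105 the response of clone 2 lay above that of WT and for 34 below it. Values are the log2FC of clone 2 relative to WT in stimulated cells minus the same in uninduced cells. Among acute phase, cytokine, NF-κB and JAK-STAT genes the difference was above 0 for Serpina3n (5.33), Hp (5.15), Lif (3.88), C1ra (2.44), Il6 (2.34), Stat5a (2.02), C1s1 (1.84), Il4ra (1.72), C3 (1.61), Cxcl1 (1.6), Sod2 (1.6), Jak2 (1.41), Il6ra (1.37), Ccl7 (1.35), Socs2 (1.23), Cxcl5 (1.16) and Nfkbia (1.1), and below 0 for Cd55 (-9.02). Among glucocorticoid and cAMP genes the difference was above 0 for Areg (4.65), Pde4b (3.67), Tsc22d3 (2.97), Sgk1 (2.93), Pde10a (2.71), Fkbp5 (2.64), Pdk4 (2.56), Glul (2.46), Nr4a1 (2.39), Ddit4 (1.61), Angptl4 (1.58), Mt1 (1.29), Rgs2 (1.29) and Cebpd (1.11). Among adipogenic factors and lipid genes the difference was above 0 for Plin1 (8.0), Plin4 (4.96), Abca1 (3.0), Klf4 (2.9), Pparg (2.63), Fabp4 (2.17), Scd1 (2.1), Dgat2 (1.72), Plin2 (1.69), Dgat1 (1.46), Rxra (1.29), Nr3c1 (1.21) and G0s2 (1.08). Among contractile, SRF and YAP genes the difference was above 0 for Tead4 (2.08), and below 0 for Myl9 (-4.25), Actg2 (-3.67), Acta2 (-2.15), Tpm1 (-1.41), Cnn2 (-1.26), Ajuba (-1.25), Actg1 (-1.12) and Tpm2 (-1.05). Among matrix and adhesion genes the difference was above 0 for Col15a1 (1.92), Itga6 (1.83), Mmp11 (1.45) and Col6a3 (1.1), and below 0 for Thbs2 (-8.46), Fmod (-6.11), Tgfbi (-4.23), Itga11 (-4.12), Col7a1 (-3.75), Col8a2 (-3.55), Lama2 (-3.19), Lum (-3.07), Eln (-2.48), Plau (-2.03), Plat (-1.29) and Col18a1 (-1.28). Among signalling genes the difference was above 0 for Ptch1 (2.35), Irs2 (2.03), Acvr1b (1.65), Fgf2 (1.61), Sfrp1 (1.47) and Igfbp4 (1.36), and below 0 for Fgf18 (-5.38), Sfrp2 (-4.95), Grem1 (-3.75), Fstl3 (-3.16), Inhba (-2.61), Ptgis (-2.59), Igf1 (-1.25) and Wnt5b (-1.16). Among cell cycle and stress genes the difference was above 0 for Nqo1 (2.6), Slc7a11 (2.33), Trp53inp1 (1.83), Btg2 (1.59), Gadd45a (1.34) and Cdkn1a (1.13). Among the other genes it was above 0 for Tmem176b (3.85), Ceacam1 (3.43), Tmem176a (3.3), Wfdc21 (3.29), Ly6a (2.71), Sox6 (2.48), CT010467.1 (2.38), Mgp (2.07), Slc7a2 (1.46) and Lbp (1.45), and below 0 for Rflnb (-3.4), Rspo2 (-1.94), Artn (-1.12), Tubb3 (-1.06) and Tap1 (-1.02). Fitted values of Cd55, Fgf18, Plin1, Sfrp2, Thbs2 and Wfdc21, with at most 3 counts in WT or clone 2 after stimulation, depend on the small count that the fit adds and are not bounds.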

How the results depend on the processing

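The DEG counts over all genes in the 4 comparisons stayed within 1.5 times their values under the alternatives tried, except where the threshold itself was changed. By adjusted p alone, stimulated clone 2 differed from WT at 8011 genes, uninduced clone 2 at 7619, the response at 4463 and stimulated clone 2 from clone 1 at 6500. When the fold threshold of 2 was tested within the model (glmTreat), these were 1546, 1296, 455 and 643. Leaving out 1 library at a time gave 2289 to 2347, 2076 to 2408, 1079 to 1303 and 1325 to 1390 DEGs. Of the 2418 stimulated DEGs, 2416 were kept with DESeq2 size factors, 2399 with the DESeq2 Wald test, 2315 with no filter beyond 1 count, 2192 with a filter of 1 CPM in 3 libraries and 2080 when the 6 libraries were fitted alone. No sign reversed. Replicate numbers did not pair the libraries (correlations of deviations -0.01, 0.04 and 0.15 between same-numbered WT and clone 2), and a replicate block gave 2393, 2132, 1103 and 1398 DEGs. Of the named genes, 8 lost their call and 3 gained one under at least 1 alternative other than adjusted p alone and glmTreat. Calls of single named genes under glmTreat were not compared, so these numbers leave out calls that it would remove. Counts of DEGs by list moved by more than 1.5 times downwards in 31 cases, 12 of them under glmTreat, and upwards in 6. Apart from glmTreat these were lists of at most 4 DEGs and the interferon list (10, and 6 when the 6 libraries were fitted alone). Beyond those given in the text, the call of Tek was lost with no filter and without WT library 1 or 2 or clone 2 library 1 or 2 (adjusted p = 0.057 to 0.141), Adipoq passed with no filter, with DESeq2 and without clone 2 library 2 (adjusted p = 0.0252 to 0.0327), and the epithelial marker Cdh1 without WT library 3 or clone 2 library 1. Depth limits genes near the floor of 3 counts over a group, whose fitted values are not bounds.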

Other observations

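Outside the fat cell and myofibroblast programmes, markers of other mesenchymal lineages moved gene by gene. Of 17 tested bone and cartilage genes 4 were higher and 4 lower in stimulated clone 2 (median log2FC 0.11). Sox6, a chondrogenic transcription factor, rose from 0.885 ± 0.134 to 26.6 ± 2.34 CPM (log2FC 4.90) and Spp1, osteopontin, from 289.5 ± 38 to 640.5 ± 56.7 CPM (log2FC 1.15), while Acan, aggrecan, had 24 counts in WT and 1 in clone 2. Of 5 tested skeletal muscle genes 2 were higher, Tnnc1 and Tnnt2, both at low levels. The call of Tnnc1 (log2FC 1.11) was lost without WT library 1 (0.97) and that of Tnnt2 (log2FC 1.33) without WT library 3 or clone 2 library 1 (1.15 and 0.94, adjusted p = 0.065 and 0.135). Interferon-stimulated and antigen presentation genes were balanced, with 5 of 27 higher and 5 lower (median -0.20). Ifitm3, a membrane protein that blocks viral entry, rose from 263 ± 16.2 to 536 ± 22.4 CPM (log2FC 1.03, but 0.98 without WT library 3 and 0.99 without clone 2 library 2), and Tap1, the peptide transporter of antigen presentation, fell from 6.22 ± 1.45 to 1.57 ± 0.16 CPM. Of 13 Notch genes 2 were lower and none higher (median -0.22), the targets Hey1 (260 counts in WT and 4 in clone 2) and Heyl (28 and 3). Of 9 Hedgehog genes 2 were higher and 1 lower (median -0.29): the receptor Ptch1 rose from 11.5 ± 1.79 to 24.1 ± 1.18 CPM, a call that was lost without WT library 1 (log2FC 0.94), and the transcription factor Gli2 fell from 11.3 ± 2.52 to 0.612 ± 0.249 CPM.

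A further 84 DEGs with a mean of at least 200 CPM belonged to none of the lists, and those that follow were chosen after their values were seen. Lbp, which hands bacterial lipopolysaccharide to CD14, rose from 175 ± 8.97 to 2366 ± 34.8 CPM (log2FC 3.76), Nrp2, a receptor of semaphorins and VEGF-C, from 43.7 ± 2.84 to 426 ± 8.27 CPM (log2FC 3.28), the arginine transporter Slc7a2 from 73.3 ± 2.64 to 820.3 ± 75.4 CPM (log2FC 3.48) and Mgp, matrix Gla protein, an inhibitor of calcification, from 69.3 ± 6.82 to 524 ± 17.2 CPM (log2FC 2.92). Mest, an imprinted gene of the mesoderm, fell from 1885 ± 34.7 to 67.8 ± 7.73 CPM (log2FC -4.80), Rspo2, a secreted amplifier of Wnt signals, from 530 ± 21.8 to 41.5 ± 4.3 CPM (log2FC -3.68), Csrp2, a LIM protein of smooth muscle, from 889 ± 15.2 to 146 ± 5.79 CPM (log2FC -2.61), Palld, palladin of actin bundles, from 726 ± 53.5 to 155 ± 9.01 CPM (log2FC -2.23) and Ptn, the growth factor pleiotrophin, from 946 ± 61.3 to 225 ± 17.9 CPM (log2FC -2.07).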
